A study of Mus musculus with 27 samples.

Results

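Mup3, Mup7, Mup20 and Mup21 are 4 of the 22 major urinary protein (Mup) symbols among the 23191 gene symbols counted in the liver RNA-Seq of 27 male C57BL/6J mice. The 4 were chosen from that family with their levels and differences in these mice already known, so their values are given here as a description: they entered the fit over all genes, no p-value is given for them, and which of them passed its threshold is counted but is no evidence, since the choice of genes used those values. Chow was fed to 7 littermate controls and to 6 HGFAC-KO mice. A further 7 controls and 7 HGFAC-KO animals ate HF/HS, a diet rich in fat and sucrose. HGFAC-KO mice lack part of Hgfac in every tissue, through a CRISPR deletion of part of the first exon and of the second exon. Hgfac encodes HGF activator, a serine protease that liver cells secrete. All mice were 8 weeks old when the diets began and were studied after 4 weeks, and no group differed in sex or strain. Each library is 1 mouse, so a p-value here measures the spread between these mice.

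Major urinary proteins are small lipocalins that hepatocytes secrete into blood and that pass through the kidney into urine, where they bind and slowly release volatile pheromones. Adult males make far more of them than females, and male-type pulses of growth hormone, read by the growth hormone receptor, JAK2 and STAT5B, are known to raise their transcription. Androgens, glucocorticoids and thyroid hormone also act on the family. Mup20, also called darcin, is the member that marks male urine for attraction and memory in females. Mup7 belongs to the large central array of near-identical genes, while Mup3, Mup20 and Mup21 are divergent members at the edge of the cluster.

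In GENCODE's annotation of GRCm38 the 22 genes lie on chromosome 4 between 59956804 and 62150863, among 26 pseudogenes named as Mup. Mup7 lies at chr4:60066469-60070475, Mup20 at chr4:62050234-62054158, Mup3 at chr4:62083476-62087342 and Mup21 at chr4:62147932-62150863, each on the minus strand. Mup20, Mup3 and Mup21 thus follow each other at the end of the cluster, and Mup7 lies near its start. Each of the 4 reference transcripts has 6 coding exons.

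A stretch of 60 bases in exon 2 shows how far the members differ. It was taken as the 60 ungapped coding bases of 1 exon in which the 4 members differ most from Mup7, and Mup12 and Mup17 are added as examples of the central array. Capitals mark bases that differ from Mup7.
Mup7: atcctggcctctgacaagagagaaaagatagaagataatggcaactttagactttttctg
Mup12: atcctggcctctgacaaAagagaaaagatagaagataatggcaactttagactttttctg
Mup17: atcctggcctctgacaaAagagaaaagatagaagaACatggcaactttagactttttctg
Mup20: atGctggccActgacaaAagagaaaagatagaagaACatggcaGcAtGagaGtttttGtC
Mup3: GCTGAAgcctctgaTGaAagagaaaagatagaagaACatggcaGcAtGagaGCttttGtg
Mup21: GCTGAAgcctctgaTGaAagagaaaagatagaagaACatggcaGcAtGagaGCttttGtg

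These bases lie at chr4:60069783-60069842 in Mup7, chr4:62053530-62053589 in Mup20, chr4:62086850-62086909 in Mup3 and chr4:62150245-62150304 in Mup21 (GRCm38, minus strand). Mup12 differed from Mup7 at 1 of the 60 bases and Mup17 at 3, while Mup20 differed at 11 and Mup3 and Mup21 at 17 each. Over the whole coding sequence Mup7 was between 98.3% and 99.3% identical to the 15 other genes of the central array. Mup3 and Mup21 were closest to each other (94.8% identical), and Mup20 was closest to Mup11 and Mup18 (91.3% each).

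The shared sequence bears on what a count of Mup7 can mean. Of the 878 windows of 50 bases, about the length of a read, in the Mup7 reference transcript, 32 (3.65%) occurred in the transcripts of no other gene, and 70.8% also occurred in Mup15. For Mup20 that share was 49.5%, and its most frequent partner was a pseudogene, Mup-ps19. For Mup21 it was 80.7% and for Mup3 84.4%. The treatment of reads that match several genes is not given in the sources used here. Counts of Mup7 are therefore uncertain between Mup7 and its near copies, and those of Mup20 in part, while Mup3 and Mup21 rest mostly on sequence of their own.

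The RefSeq table of promoters (GRCm38.p6) held 14 of the 22 genes, Mup20 not among them. The last 100 of the 250 bases before the annotated start of Mup3 (chr4:62087318-62087417) and Mup21 (chr4:62150842-62150941) are shown with those of Mup17 (chr4:61595833-61595932) as a gene of the central array, all on the minus strand, because the 3 share a stretch found in most of these 14 promoters. Capitals mark TATATAA, the letters of a TATA box, on the gene's own strand.
Mup3: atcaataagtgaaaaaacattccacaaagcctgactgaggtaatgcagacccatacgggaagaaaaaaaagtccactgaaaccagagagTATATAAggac
Mup21: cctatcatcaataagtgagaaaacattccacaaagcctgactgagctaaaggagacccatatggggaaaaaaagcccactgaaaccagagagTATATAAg
Mup17: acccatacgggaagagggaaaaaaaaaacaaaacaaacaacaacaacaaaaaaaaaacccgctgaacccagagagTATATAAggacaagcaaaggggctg

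TATATAA was found on the gene's strand in the 250 bases before the start of 11 of these 14 Mup genes and of 2.23% of all 27025 promoters in the table. It was not found in that window of Mup7, whose last bases resemble the first ones shown for Mup3, ahead of its TATATAA. The Mup7 window thus ends before the place where Mup3 has TATATAA, and its absence there does not show that Mup7 lacks it. TTCNNNGAA, the core that STAT5 binds, searched on both strands, was found in 7.18% of all promoters and in 0 of the 14, and these windows reach no farther than 250 bases.

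The mice carried their labels at the Hgfac gene: its level ran from 183 to 219 CPM in controls on chow against 65.4 to 84.5 CPM in HGFAC-KO mice, and from 247 to 296 CPM against 81.8 to 101 CPM on HF/HS. The bases outside the deletion are still counted. CPM is the usual unit of counts scaled to the same total in every library, here with each library's named counts adjusted by its TMM factor. Total counts ran from 36056177 to 57298657 per mouse, so counting error is small for each of the 4 genes, whose lowest count was 5823. The labelled tissue carried its markers, as 7 hepatocyte markers together held between 75276 and 112950 CPM and 5 kidney markers at most 0.106 CPM, with 3 of the 5 at 0 in all mice.

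Libraries of 2 mice stood apart in how their counts are built. In HGFAC-KO chow mouse 1 every count was even (0% odd, against 51.3% to 52.8% in 25 other mice), and in HGFAC-KO HF/HS mouse 6 44.4% were odd, with 383 rows at a count of 1 against 994 to 1175 in those 25. Several results that rest on these mice are given with and without them.

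The family took 1.45% ± 0.33 (SD, n = 27 mice) of the counts on named genes. The lowest share was 0.745% in HGFAC-KO chow mouse 1 and the highest 2.40% in HGFAC-KO HF/HS mouse 4. The 4 members held between 64.1% and 84.6% of the family's counts, most of it on Mup3 and Mup7. Per kilobase of reference transcript, the mean level over all mice was 5590 CPM for Mup3, 3940 for Mup7, 1276 for Mup20 and 315 for Mup21. They ranked 1, 2, 4 and 8 among the 22, with Mup6 (1601 CPM per kilobase) ranking 3 and Mup14 and Mup11 between Mup20 and Mup21.

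**Figure D1:**
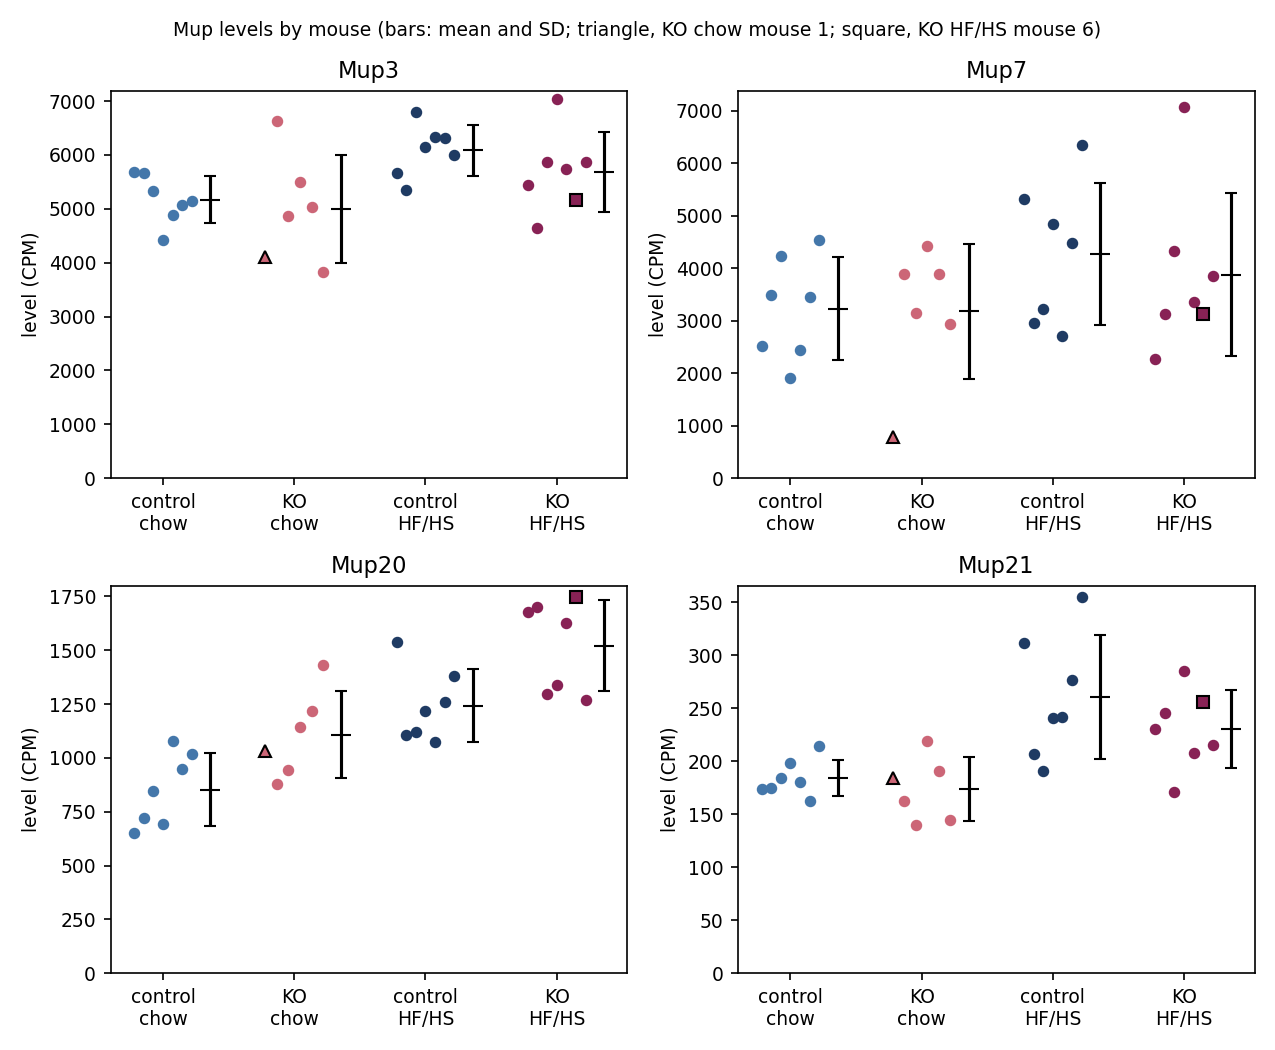
Level of each gene in CPM (y axis, from 0) in each mouse, by genotype and diet (x axis); bars give the group mean and SD, the triangle is HGFAC-KO chow mouse 1 and the square HGFAC-KO HF/HS mouse 6. Mup20 rises stepwise in mean from 852 to 1522 CPM over the 4 groups, while the mice of each group spread widely for Mup7, from 783 to 7069 CPM in all.

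Mup3 was the most abundant member by mean and, pooled over groups, the most even between mice. In controls it ran from 4428 CPM (median 5150) to 5686 CPM on chow, and from 5346 (median 6146) to 6789 CPM on HF/HS. In HGFAC-KO mice it ran from 3834 (median 4948) to 6622 CPM on chow and from 4647 (median 5730) to 7037 CPM on HF/HS. Among controls, 5 of 7 mice on HF/HS lay above every mouse on chow, yet the ranges of all groups overlapped. By mean the order was controls on HF/HS (6086 ± 474 CPM), HGFAC-KO on HF/HS (5679 ± 742), controls on chow (5173 ± 443) and HGFAC-KO on chow (4992 ± 1005; SD, n = 7, 7, 7 and 6 mice), and no neighbours in that order lay farther apart than the larger of their SDs. By diet, controls on HF/HS exceeded controls on chow by more than either SD, and the HGFAC-KO groups differed by less than either SD. The HGFAC-KO group on chow spread most, with a coefficient of variation of 20.1% against 8.56% in controls on chow. In that group Mup20 (18.3%) and Mup21 (17.3%) were more even than Mup3.

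On the log2 scale Mup7 varied more between mice of a group than with genotype or diet. Its pooled SD within groups was 0.60, or 0.49 without the 2 libraries that stood apart, and its largest difference was 0.40, by diet in controls. In controls it ran from 1902 CPM (median 3453) to 4541 CPM on chow and from 2716 (median 4471) to 6342 CPM on HF/HS. In HGFAC-KO mice it ran from 783 (median 3513) to 4425 CPM on chow and from 2270 (median 3348) to 7069 CPM on HF/HS. The lowest value was that of HGFAC-KO chow mouse 1, 1 of the libraries that stood apart, and the highest that of HGFAC-KO HF/HS mouse 4, so that the mice spanned 9.02-fold. Without the 2 libraries that stood apart the span was 3.72-fold, from 1902 CPM. Group means were 3226 ± 979, 3175 ± 1293, 4266 ± 1353 and 3873 ± 1549 CPM for controls and HGFAC-KO on chow and controls and HGFAC-KO on HF/HS (SD, n = 7, 6, 7 and 7 mice), and the groups overlapped throughout. Without HGFAC-KO chow mouse 1 the mean of its group was 3653 ± 610 CPM (SD, n = 5), above rather than below the controls on chow.

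Mup20, the male pheromone protein, was higher with HF/HS and higher in the HGFAC-KO groups. In controls it ran from 653 CPM (median 845) to 1081 CPM on chow and from 1072 (median 1219) to 1540 CPM on HF/HS. In HGFAC-KO mice it ran from 878 (median 1089) to 1433 CPM on chow and from 1268 (median 1627) to 1746 CPM on HF/HS. All 6 HGFAC-KO mice on chow and all 7 on HF/HS lay above the median of the controls on the same diet, and 3 of 6 and 4 of 7 lay above every such control. The ranges overlapped in each comparison. In order of means, HGFAC-KO on HF/HS (1522 ± 210 CPM) exceeded controls on HF/HS (1243 ± 169) by more than either SD, controls on HF/HS and HGFAC-KO on chow (1108 ± 203) differed by less, and HGFAC-KO exceeded controls on chow (852 ± 169; SD, n = 7, 7, 6 and 7 mice) by more than either SD. The mean was 1123 CPM in HGFAC-KO on chow without mouse 1 and 1484 CPM in HGFAC-KO on HF/HS without mouse 6, which had the highest value of its group.

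Mup21 was the least abundant member and was higher on HF/HS in both genotypes. In controls it ran from 162 CPM (median 180) to 214 CPM on chow and from 190.2 (median 242) to 355 CPM on HF/HS. In HGFAC-KO mice it ran from 140.1 (median 173) to 219 CPM on chow and from 171 (median 231) to 285 CPM on HF/HS. Of the mice on HF/HS, 5 of 7 controls and 4 of 7 HGFAC-KO mice lay above every chow mouse of their genotype, and the ranges overlapped. Means were 260.2 ± 58.3 CPM in controls and 230.1 ± 36.8 in HGFAC-KO mice on HF/HS, and 184 ± 17.2 in controls and 173 ± 30.0 in HGFAC-KO mice on chow (SD, n = 7, 7, 7 and 6). Within a diet the genotypes differed by less than the larger SD, and HGFAC-KO mice on HF/HS exceeded controls on chow by more than either SD.

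The genotype comparisons asked whether loss of HGFAC moved these genes on either diet. As log2 difference of HGFAC-KO minus control with its standard error, Mup20 stood at 0.39 ± 0.14 on chow and 0.29 ± 0.10 on HF/HS. The other members lay near or below 0: Mup3 at -0.05 ± 0.11 and -0.10 ± 0.08, Mup7 at -0.02 ± 0.32 and -0.14 ± 0.24, and Mup21 at -0.08 ± 0.10 and -0.18 ± 0.14, on chow and on HF/HS. Of the 4 members, 0 passed an adjusted p of 0.05 (edgeR's quasi-likelihood test, Benjamini-Hochberg over all genes tested) on either diet, where 0.00737% of 13571 genes on chow and 0.0148% of 13544 on HF/HS did. Single mice moved the differences of Mup3, Mup7 and Mup21. On chow, Mup7 ran from -0.14 without HGFAC-KO mouse 4 to 0.18 without HGFAC-KO mouse 1, Mup3 from -0.14 without HGFAC-KO mouse 2 to 0.02 without HGFAC-KO mouse 6, and Mup21 from -0.15 without HGFAC-KO mouse 4 to -0.02 without HGFAC-KO mouse 3. On HF/HS, Mup7 ran from -0.35 without HGFAC-KO mouse 4 to -0.02 without control mouse 7, Mup3 from -0.16 without HGFAC-KO mouse 4 to -0.06 without HGFAC-KO mouse 2, and Mup21 from -0.24 without control mouse 3 to -0.09 without control mouse 7. Whichever mouse was left out, Mup20 kept a difference of 0.30 to 0.45 on chow and of 0.26 to 0.35 on HF/HS. The 7 hepatocyte markers also had a higher median sum in the HGFAC-KO groups, with overlapping ranges of 86225 to 98794 CPM against 75276 to 89536 CPM on chow and of 85316 to 112950 CPM against 75627 to 92003 CPM on HF/HS. With edgeR 0 of 7 passed the threshold on either diet. With DESeq2 2 of 7 passed on chow and 1 of 7 on HF/HS, where 13 and 55 genes passed in all. At an unadjusted p below 0.05 with edgeR there were 2 of 7 on each diet, against 812 of 13571 and 1306 of 13544 of all genes. The part of these markers in the Mup20 difference was not tested.

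**Figure D2:**
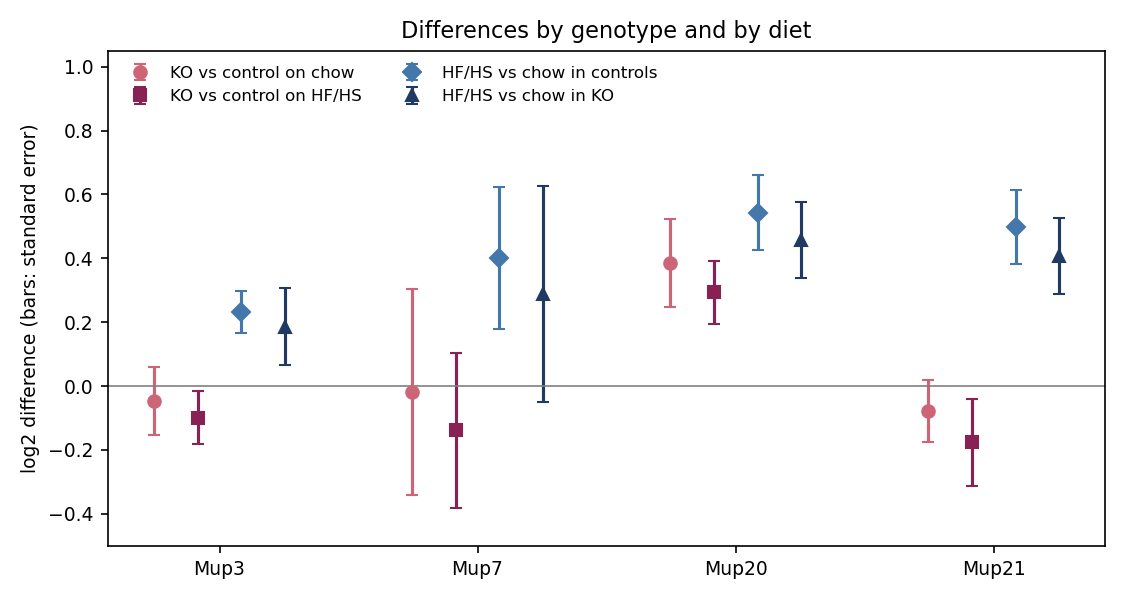
Log2 difference (y axis) of each of the 4 genes (x axis) in both genotype comparisons and both diet comparisons; bars give the standard error. The diet differences lie above 0 for each gene, from 0.19 to 0.54, while of the genotype differences only those of Mup20 do.

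The diet comparisons asked how HF/HS differed from chow within each genotype. In controls the log2 difference of HF/HS minus chow was 0.54 ± 0.12 for Mup20, 0.50 ± 0.12 for Mup21, 0.40 ± 0.22 for Mup7 and 0.23 ± 0.07 for Mup3. In HGFAC-KO mice it was 0.46 ± 0.12 for Mup20, 0.41 ± 0.12 for Mup21, 0.29 ± 0.34 for Mup7 and 0.19 ± 0.12 for Mup3. Each was above 0, and the median of all genes tested was at 0.00 in both. In controls 3 of 4 members (all but Mup7) passed the threshold upward, where 10.5% of 13525 genes passed in either direction and 4.93% upward. In HGFAC-KO mice 1 of 4 (Mup20) passed, where 5.89% of 13613 genes passed in either direction and 3.17% upward. These counts are a description, as the members were chosen with these contrasts known. Both diet comparisons share their mice with the genotype comparisons.

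Single mice moved both the calls and, for Mup3 and Mup7, the differences by diet. In controls, leaving out 1 of the 14 mice gave differences from 0.49 to 0.61 for Mup20 and from 0.41 to 0.56 for Mup21. Mup3 did not pass in 7 of 14 such fits, without control chow mouse 4, 5, 6 or 7 or control HF/HS mouse 3, 5 or 6, with differences from 0.20 to 0.26 over the 14. It also did not pass with the replicate block or with all 27 mice in one fit. In HGFAC-KO mice, Mup20 did not pass in 8 of 13 fits, without chow mouse 1, 2, 3 or 4 or HF/HS mouse 1, 2, 5 or 6, with differences from 0.40 to 0.55. Mup21 there came to pass without chow mouse 4 or HF/HS mouse 3, with differences from 0.35 to 0.48. Mup7 ran from 0.08 without HF/HS mouse 4 to 0.40 without chow mouse 4 in HGFAC-KO mice, and from 0.28 without HF/HS mouse 7 to 0.51 without chow mouse 7 in controls. Mup3 in HGFAC-KO mice ran from 0.12 without chow mouse 6 to 0.28 without chow mouse 2. Without both libraries that stood apart, the diet difference in HGFAC-KO mice was 0.40 for Mup20, which then no longer passed, 0.40 for Mup21, 0.16 for Mup3 and 0.13 for Mup7.

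The interaction compared the diet difference between genotypes. It was -0.05 ± 0.14 for Mup3, -0.12 ± 0.42 for Mup7, -0.09 ± 0.17 for Mup20 and -0.09 ± 0.18 for Mup21 (log2, HGFAC-KO minus control, with standard error), less than its standard error in each. Leaving out single mice moved it from -0.33 to 0.01 for Mup7 (without HGFAC-KO HF/HS mouse 4 and control HF/HS mouse 7) and from -0.11 to 0.05 for Mup3 (without HGFAC-KO chow mouse 6 and mouse 2). It ran from -0.16 to -0.00081 for Mup20 (without control chow mouse 5 and HGFAC-KO chow mouse 6) and from -0.16 to -0.0028 for Mup21 (without control HF/HS mouse 3 and mouse 7). Without both libraries that stood apart the interaction was -0.08 for Mup3, -0.27 for Mup7, -0.14 for Mup20 and -0.10 for Mup21. Of 13932 genes 0% passed the threshold with edgeR and 0 with DESeq2, and 506 had an unadjusted p below 0.05 with edgeR (543 with DESeq2).

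Spread between mice set Mup7 apart from the other members. The pooled SD of log2 CPM within groups was 0.60 for Mup7, 0.24 for both Mup20 and Mup21 and 0.18 for Mup3, where the median over 7953 genes with a mean of at least 10 CPM was 0.12. For Mup7 99.1% of those genes had a smaller SD, and for Mup3 79.5% did. Without the 2 libraries that stood apart Mup7 was still at 0.49. The 15 other genes of the central array, with at most 21.9% of their windows to themselves, ran from 0.40 (Mup10) to 1.18 (Mup2). Of the genes with over 80% of windows to themselves, Mup4, Mup5 and Mup6 had SDs of 0.24, 0.35 and 0.53. Mup4 and Mup5 had at most 4.29 and 7.90 CPM in any mouse, so the 2 CPM added before the log lowers their SDs, which cannot be set beside those of the abundant genes.

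**Figure D3:**
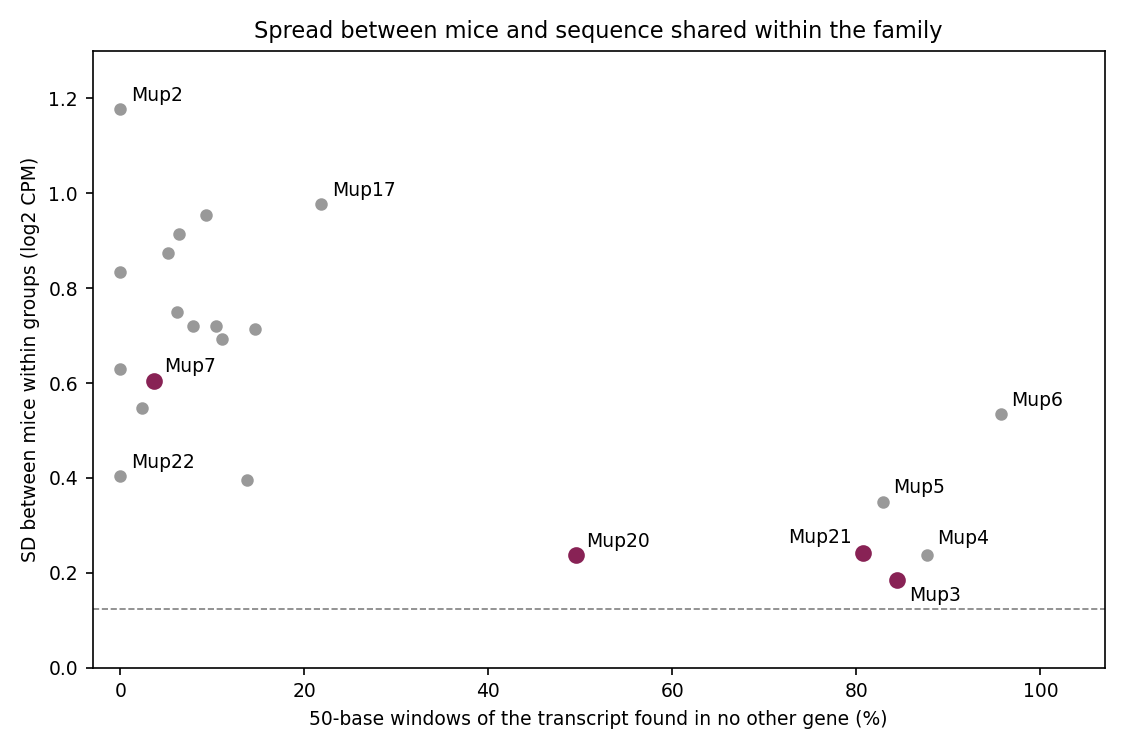
Pooled SD between mice of a group in log2 CPM (y axis) against the share of 50-base windows of the reference transcript found in no other gene (x axis) for the 22 Mup genes, members in dark red; the dashed line is the median SD of 7953 genes. Mup7 sits among the array genes at 3.65% and 0.60, and Mup3, Mup20 and Mup21 lie between 0.18 and 0.24.

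Mice with high Mup7 had high levels of the array as a whole. After group means were taken out, Pearson's r of Mup7 over 27 mice was 0.96 with Mup16 (Spearman's rho 0.94), 0.96 with Mup11 and 0.95 with Mup17. It was above 0.5 with 14 of the 16 other Mup genes that had a mean of at least 10 CPM, with a median of 0.81. It was also 0.83 with Mup6, which has 95.7% of its windows to itself, and 0.94 without the 2 libraries that stood apart. These points share libraries and depth, and near-identical genes share reads, so r is given as a description.

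The members at the edge of the cluster followed the array less closely. The median r with the 16 other genes was 0.42 for Mup3, 0.31 for Mup21 and 0.15 for Mup20, and it was above 0.5 with 3, 1 and 0 of them. Between members, within groups, r was 0.53 for Mup3 and Mup7 (rho 0.46) and 0.35 for Mup20 and Mup21 (rho 0.34). Without the 2 mice farthest from the median of either gene, r was 0.60 (by Mup3) or 0.40 (by Mup7) for the first pair and 0.46 (by Mup20) or 0.30 (by Mup21) for the second. Mup3 and Mup20 ran opposite ways, with r at -0.49 (rho -0.55) within groups and -0.31 without HGFAC-KO chow mice 2 and 6, the 2 mice farthest from the median of Mup3 (-0.37 without the 2 farthest from that of Mup20). Over all mice, group means included, r of that pair was 0.04.

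**Figure D4:**
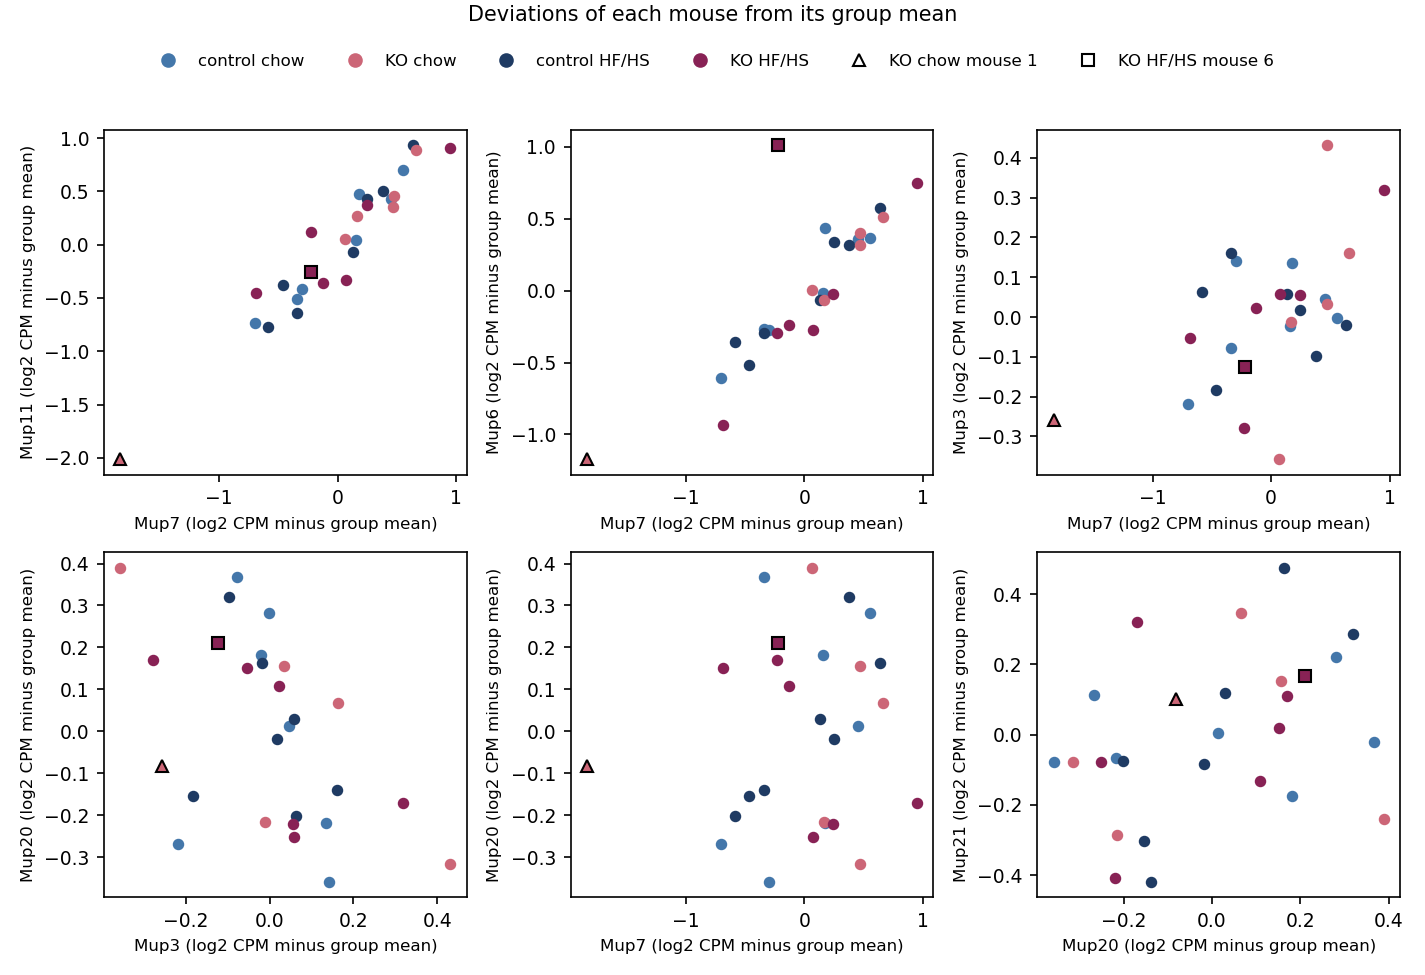
Each mouse's log2 CPM minus its group mean for 6 pairs of Mup genes (axes named in each panel); colours give the group, the triangle HGFAC-KO chow mouse 1 and the square HGFAC-KO HF/HS mouse 6. Mup7 and Mup11 fall on a line (r = 0.96), the square leaves the line of Mup7 and Mup6, and Mup3 and Mup20 slope downward (r = -0.49).

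The ratio of Mup6 to Mup7 set 2 mice apart. It lay between 0.31 and 0.49 in 25 mice, at 0.69 in HGFAC-KO chow mouse 1 and at 1.04 in HGFAC-KO HF/HS mouse 6. In that last mouse Mup6 was at 3241 CPM, against 2701 CPM in the next mouse, HGFAC-KO HF/HS mouse 4, and Mup4 and Mup5, at 4.29 and 7.90 CPM, also had their highest values, while Mup7 at 3129 CPM was within its group's range. In HGFAC-KO chow mouse 1, Mup7 took 10.8% of the family's counts against 19.1% to 30.1% in the other 26 mice, and 14 of the 18 other Mup genes had their lowest level. Mup20 and Mup21 were not low in that mouse, at 1033 and 184 CPM. The part that the unusual counts of these libraries have in these values was not tested.

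**Figure D5:**
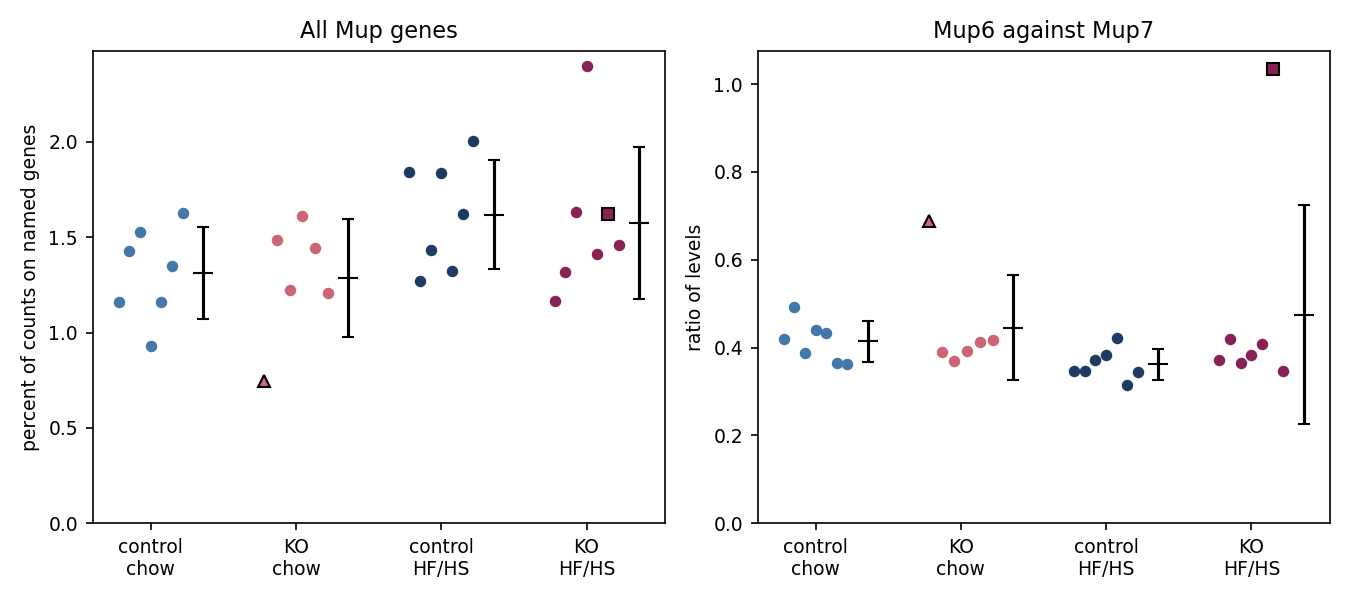
Share of the counts on named genes that fall on the 22 Mup genes (left, percent) and ratio of the Mup6 to the Mup7 level (right) in each mouse by group; bars give mean and SD, the triangle is HGFAC-KO chow mouse 1 and the square HGFAC-KO HF/HS mouse 6. The family share spans 0.745% to 2.40%, and the square stands alone at a ratio of 1.04.

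Of the 18 other Mup genes, 0 passed the threshold in any of the 5 comparisons with edgeR, DESeq2 or limma voom, where with edgeR 10.5% and 5.89% of all genes passed by diet in controls and in HGFAC-KO mice and 0.00737% and 0.0148% by genotype on chow and on HF/HS. At an unadjusted p below 0.05 with edgeR there was 1 of 18 by genotype on chow and 1 of 18 by diet in HGFAC-KO mice, against 812 of 13571 and 3043 of 13613 of all genes. There were 0 of 18 by genotype on HF/HS, by diet in controls and in the interaction, against 1306 of 13544, 3433 of 13525 and 506 of 13932. The median log2 difference of the 18 was 0.01 and 0.10 by genotype on chow and on HF/HS, and 0.22 and 0.33 by diet in controls and in HGFAC-KO mice, against 0.00 for all genes. Mup11, of the central array, stood at 0.58 ± 0.30 (adjusted p = 0.246) by diet in controls and Mup2 at -1.80 ± 0.74 (adjusted p = 0.801) by genotype on chow.

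On the far side of Mup21 lie Zfp37, Slc31a2 and Fkbp15, and before Mup4 lie Inip, Snx30 and Slc46a2. Means ran from 0.44 to 40.9 CPM for 5 of them, and Slc46a2 had at most 0.0227 CPM in any mouse and was not tested. Their log2 differences in the genotype and diet comparisons ran from -0.41 to 0.53, both for Zfp37. With edgeR 0 of the 5 passed the threshold, and at these shares of all genes past it (10.5% at most) a count of 0 in 5 says nothing about them. At an unadjusted p below 0.05 with edgeR there was 1 of 5 by diet in HGFAC-KO mice and 1 of 5 in the interaction, against 3043 of 13613 and 506 of 13932 of all genes. Fkbp15, the most abundant, stood at 0.10 ± 0.05 (adjusted p = 0.233) by diet in controls.

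Growth hormone signalling was read from 10 genes, and 2 of them passed the threshold in 1 comparison, HF/HS against chow in controls, where 10.5% of all genes did. The median log2 difference of the 10 there was 0.09, against 0.00 for all genes. Ghr, the growth hormone receptor, rose by 0.17 ± 0.05 on the log2 scale (edgeR adjusted p = 0.0299), and Cish, a STAT5 target that damps the signal, by 3.11 ± 0.92 (adjusted p = 0.0476). The rise of Cish came from few mice, as controls on HF/HS ran from 1.33 (median 3.19) to 57.1 CPM and those on chow from 1.34 (median 2.08) to 2.58 CPM. Both calls were lost when single mice were left out: Ghr in 7 of 14 fits (without control chow mouse 2, 4, 6 or 7 or control HF/HS mouse 1, 2 or 5), with differences from 0.15 to 0.20, and Cish in 10 of 14 (without any of the 7 chow mice or HF/HS mouse 2, 3 or 7), from 2.39 to 3.32. Ghr was also lost with no filter on low counts, with all 27 mice in one fit and with the replicate block, and Cish with limma voom, no filter, upper-quartile normalization and the replicate block, its difference over the alternatives being as low as 1.62. In the other comparisons 0 of 10 passed with edgeR and limma voom. At an unadjusted p below 0.05 with edgeR there were 3 of 10 by diet in HGFAC-KO mice, against 3043 of 13613 of all genes. There was 1 of 10 each by genotype on chow and on HF/HS and in the interaction, against 812 of 13571, 1306 of 13544 and 506 of 13932. With DESeq2 1 passed, Jak2 by diet in HGFAC-KO mice, where 1401 genes passed in all. Cish stood at -2.72 ± 0.91 by genotype on HF/HS and at -0.15 ± 0.38 by diet in HGFAC-KO mice (edgeR adjusted p = 0.442 and 0.860). Jak2, the kinase of the receptor, stood at 0.24 ± 0.07 by diet in HGFAC-KO mice (edgeR adjusted p = 0.0679). It also passed with edgeR without HGFAC-KO chow mouse 6. Stat5b, the liver's main factor of the pathway, was at 0.16 ± 0.06 and 0.18 ± 0.07 by diet in controls and HGFAC-KO mice (adjusted p = 0.139 and 0.148). Socs2 and Igf1, a pair of its targets, were at 0.43 ± 0.20 and 0.06 ± 0.07 by genotype on chow (adjusted p = 0.801 and 0.871), and Bcl6, a repressor that STAT5 lowers, was at 0.11 ± 0.20 (adjusted p = 0.920). By genotype on HF/HS, Socs2, Igf1 and Bcl6 were at 0.01 ± 0.28, 0.05 ± 0.07 and 0.34 ± 0.22 (edgeR adjusted p = 0.995, 0.855 and 0.628). Stat5a, Igfals and Ptpn6 lay between -0.21 and 0.13 in the genotype and diet comparisons.

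Receptors and targets of the other hormones known to act on the family, with Zhx2, a regulator of several liver genes, showed 0 of 10 past the threshold in every comparison with edgeR and limma voom and 1 with DESeq2, by diet in controls. With edgeR 10.5% and 5.89% of all genes passed by diet in controls and in HGFAC-KO mice and close to none in the others. With DESeq2 1939 genes passed by diet in controls. At an unadjusted p below 0.05 with edgeR there were 2 of 10 by diet in controls and 1 of 10 by diet in HGFAC-KO mice. Of all genes, 3433 of 13525 and 3043 of 13613 were below it there. There were 0 of 10 in the others, against 812 of 13571 and 1306 of 13544 by genotype on chow and HF/HS and 506 of 13932 in the interaction. Nr3c1, the glucocorticoid receptor, was at 0.18 ± 0.08 and 0.17 ± 0.08 by diet in controls and HGFAC-KO mice (adjusted p = 0.178 and 0.198), and its targets Fkbp5, Tsc22d3 and Per1 were at -0.49 ± 0.23, -0.19 ± 0.12 and 0.39 ± 0.41 in controls (adjusted p = 0.203, 0.362 and 0.604). Zhx2 lay between -0.04 and 0.01 in the genotype and diet comparisons, and Thra, Thrb, Esr1 and Hsd11b1 between -0.35 and 0.39.

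Genes known to be higher in male liver changed in both directions with diet. Of 19 tested, 6 rose and 5 fell in controls and 2 rose and 2 fell in HGFAC-KO mice, where 10.5% and 5.89% of all genes passed in either direction and 4.93% and 3.17% upward. The median log2 difference of the 19 was 0.21 and 0.27, against 0.00 for all genes. Hsd3b5, a male-specific steroid dehydrogenase, rose by 1.34 ± 0.14 in controls and 1.21 ± 0.23 in HGFAC-KO mice (edgeR adjusted p = 2.58e-05 and 0.00784), the latter call lost with the replicate block. Nudt7 rose by 0.71 ± 0.11 in controls (adjusted p = 0.000663) and Cyp2u1 by 0.69 ± 0.15 in HGFAC-KO mice (adjusted p = 0.0117), while Cyp4a12a, an androgen-responsive hydroxylase of fatty acids, fell by 0.62 ± 0.10 and 0.76 ± 0.13 (adjusted p = 0.00114 and 0.00373). By genotype 0 of 19 passed with edgeR, where 0.00737% of all genes on chow and 0.0148% on HF/HS did. At an unadjusted p below 0.05 with edgeR there were 4 of 19 on chow and 2 of 19 on HF/HS, against 812 of 13571 and 1306 of 13544 of all genes. With DESeq2 2 of 19 passed on chow, Cyp4a12a and Cyp4a12b, both lower in HGFAC-KO mice, and 0 on HF/HS, where 13 and 55 genes passed in all.

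Of genes known to be higher in female liver, some fell in controls, where 5 of 13 tested fell and 0 rose, and in HGFAC-KO mice 5 of 14 fell and 1 rose, with 10.5% and 5.89% of all genes past the threshold in either direction. Their median log2 difference was -0.64 and -0.66. Of those that fell, 4 in each are enzymes of the Cyp3a family. Cyp3a41a, Cyp3a16 and Cyp3a44 fell in controls, with log2 differences of -4.58 ± 0.33, -3.87 ± 0.28 and -2.85 ± 0.25 (edgeR adjusted p = 2.09e-07, 2.81e-07 and 2.31e-06), from means over all mice of at most 1.04 CPM. In HGFAC-KO mice their differences were -3.87 ± 0.27, -2.94 ± 0.31 and -2.70 ± 0.29 (adjusted p = 1.58e-06, 6.85e-05 and 6.85e-05), and Cyp2c69 rose by 1.503 ± 0.34 (adjusted p = 0.0192), a call lost without both libraries that stood apart. With at least 10 counts required in every library these 3 Cyp3a genes are not tested, and the fallen genes numbered between 1 and 7 in controls and between 0 and 7 in HGFAC-KO mice over the alternatives. By genotype 0 of 14 on chow and 0 of 10 on HF/HS passed with edgeR, where 0.00737% and 0.0148% of all genes did. At an unadjusted p below 0.05 with edgeR there were 6 of 14 and 2 of 10, against 812 of 13571 and 1306 of 13544 of all genes. The median log2 difference of the list was 0.30 and 0.45, against 0.00 for all genes.

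Of 10 other lipocalins tested 1 passed with edgeR, in a comparison where 10.5% of all genes did. It was C8g, a chain of complement C8, which rose by 0.24 ± 0.06 by diet in controls (edgeR adjusted p = 0.0199, lost with the replicate number as a block). With DESeq2 Apom by genotype on chow, Orm2 by diet in controls and Orm3 by diet in HGFAC-KO mice passed too. There 13, 1939 and 1401 genes passed in all. Of 16 genes of protein folding and export in the endoplasmic reticulum 0 passed with edgeR, where 10.5% and 5.89% of all genes passed by diet and close to none by genotype, so that 0 is uninformative there. With DESeq2 1 of 16 passed, Atf4, lower on HF/HS in HGFAC-KO mice, where 1401 genes passed in all. At an unadjusted p below 0.05 with edgeR there were 2 of 16 by diet in controls and in HGFAC-KO mice, against 3433 of 13525 and 3043 of 13613 of all genes. There were 0 in the others, against 812 of 13571 and 1306 of 13544 by genotype on chow and HF/HS and 506 of 13932 in the interaction. Of 12 liver transcription factors 1 passed with edgeR, where 5.89% of all genes did: Foxa2, which fell by 0.29 ± 0.08 by diet in HGFAC-KO mice (adjusted p = 0.0329). That call was lost with all 27 mice in one fit and in 5 of 13 fits, without HGFAC-KO chow mouse 2, 5 or 6 or HF/HS mouse 1 or 4, with differences from -0.33 to -0.26. With DESeq2 Foxa3 by genotype on chow passed too, where 13 genes passed in all.

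Markers of other cell types were read beside the Mup differences, by diet in HGFAC-KO mice first. Of 8 Kupffer cell markers 6 rose, where 3.17% of all genes did, C1qa by 0.49 ± 0.09, Clec4f by 0.65 ± 0.11 and C1qb by 0.50 ± 0.09 (edgeR adjusted p = 0.00335, 0.00372 and 0.00544), and 1 of 6 markers of the endothelium, Stab2, and 1 of 5 tested of leukocytes, Ptprc, rose by 0.42 ± 0.09 and 0.63 ± 0.14 (adjusted p = 0.0124 and 0.0163). With DESeq2 3 of 6 endothelial markers passed, Cdh5 and Kdr among them, where 1401 genes passed in all. The 8 Kupffer markers summed to between 159 and 244 CPM on chow and between 223 and 340 CPM on HF/HS in these mice. In controls they summed to between 159 and 337 CPM on chow and to between 207 and 419 CPM on HF/HS, and 0 of 8 passed with edgeR, where 4.93% of all genes rose. Clec4f passed there with DESeq2, limma voom, all 27 mice in one fit and the replicate block, and without control chow mouse 7 or control HF/HS mouse 2 or 3, and the difference between genotypes in the diet change passed for 0 of 8. Without both libraries that stood apart, 4 of 8 rose in HGFAC-KO mice. In controls, where 10.5% of all genes passed by diet, 2 of 7 hepatocyte markers did. Apoa1 rose by 0.39 ± 0.05 and Ass1 fell by 0.59 ± 0.09 (edgeR adjusted p = 0.000292 and 0.000551). Ass1 also fell in HGFAC-KO mice, by 0.54 ± 0.10 (edgeR adjusted p = 0.00611), as 1 of 7 where 5.89% of all genes passed. In controls 1 of 7 stellate markers, Lrat, and 1 of 4 of red blood cells, Hba-a2, fell by 0.60 ± 0.16 and 1.02 ± 0.27 (edgeR adjusted p = 0.0273 and 0.0238). The call of Lrat was lost without control chow mouse 4 or control HF/HS mouse 1 or 6, and that of Hba-a2 without control HF/HS mouse 2 and with the replicate block. In bulk liver, fewer cells of a type and less RNA per cell cannot be told apart, and the part of these markers in the Mup differences was not tested.

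The genes whose levels followed each member most closely from mouse to mouse were other ones for each. Likeness was Pearson's r of log2 CPM over 27 mice after group means were taken out, among 7933 genes of at least 10 CPM outside the family, and the mice share libraries and depth. For Mup3 they were Cyp1a2 (r = 0.79), Adtrp (0.78), Cyp4f13 (0.78), Lipc (0.77) and Cyp2d26 (0.76), enzymes of drug and lipid metabolism. For Mup7 they were Cmtr1, an RNA cap methyltransferase (r = 0.90, 0.81 without the 2 mice farthest from the median of Mup7), Gbf1 (0.83), Slc38a10 (0.83), Pdp2 (0.83) and Dnajb12 (0.83). For Mup20 they were Prdm4 (0.72), the complement gene C6 (0.70), Msrb3 (0.70), Fgfr1 (0.69) and Mon1b (0.67). For Mup21 they were Gjb2, a gap junction protein (0.80), Ttpal (0.75), Stap2 (0.74), Il17ra (0.74) and the complement gene C9 (0.74). The median r over all 7933 genes was 0.08, 0.09, 0.00 and 0.01 for Mup3, Mup7, Mup20 and Mup21. Without the 2 libraries that stood apart these 20 values of r lay between 0.69 and 0.83. Over all mice, group means included, r of Cyp1a2 with Mup3 was -0.03, as Cyp1a2 was at 529 ± 85.1 CPM on chow and 306 ± 43.6 CPM on HF/HS in controls (SD, n = 7 each) while Mup3 was higher on HF/HS.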

How the data were processed

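Liver mRNA of 27 mice was captured and made into stranded libraries. The authors aligned short paired-end reads to GRCm38 with HISAT2 and deposited raw counts per gene from featureCounts 1.6.3, per the labels. The annotation and the handling of multiply mapped reads are not given in the sources used here. Rows without a gene name, 3886 of 27179 and 4.13% to 12.1% of a library's counts, were left out, and 89 repeated symbols were summed. Total counts ran from 36056177 to 57298657. Levels are TMM-scaled CPM, with 2 CPM added on the log2 scale for correlations and SDs. Genes were tested with edgeR 4.0.16 (filterByExpr with minimum count 10 and total 15, robust quasi-likelihood, adjusted p threshold 0.05) within the mice of each comparison, and over all mice for the interaction. Alternatives were DESeq2 1.42.0, limma 3.58.1 voom, other filters, scalings and samples, a replicate block, and leaving out each mouse. Added after the counts were seen were HGFAC-KO chow mouse 1 with its counts halved and both libraries with few odd counts left out. The fits were tested on simulated counts. The members, the gene lists and the rule for named genes (the members, all Mup symbols, up to 3 called genes a list and comparison, the genes of 2 lists of hormone signalling except 1 not reported here, 5 genes most like each member, 3 neighbours a side) were chosen with earlier results of these data known. Single mice and other genes set beside a result were chosen after their values were seen. Positions, transcripts and windows come from GENCODE M21 (GRCm38), the reference transcript being the longest with 6 coding exons, and promoters from RefSeq.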

Additional observations from a re-analysis of the deposited data

Results flagged for a closer look

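Among 36 sets of group and measure (4 Mup levels, the family's share of counts, the members' and Mup7's shares of the family and 2 ratios, in 4 groups), 5 held a mouse whose gap to its nearest neighbour was large against the group's range by Dixon's criterion. Chance flags about 1 in 20 groups, but these measures overlap and come from the same mice and genes, so 5 of 36 is no comparison with that rate. In HGFAC-KO mice on HF/HS, mouse 4 had Mup7 at 7069 CPM against 4331 CPM in the next mouse, and the family took 2.40% of its counts against 1.63%. In the same group, mouse 6 had a ratio of Mup6 to Mup7 of 1.04 against 0.42 in the next. In HGFAC-KO mice on chow, mouse 1 had that ratio at 0.69 against 0.42, and 10.8% of its Mup counts on Mup7 against 24.9%. Mouse 1 on chow and mouse 6 on HF/HS are the libraries with few odd counts, and the part of this in the ratios was not tested.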

How the results depend on the processing

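The 16 group levels moved by less than 1 SD between mice under CPM of all rows without TMM. So did the members' log2 differences under all 500 alternatives, but that SD exceeds each difference of Mup7 (SD 0.60) and the genotype and interaction differences of Mup3 (0.18) and Mup21 (0.24) and the interaction of Mup20 (0.24), so it says nothing of their stability, and by diet in HGFAC-KO mice Mup7 went from 0.29 to 0.08 without HF/HS mouse 4. Counts of genes past the threshold moved by over 1.5 times in 8 of 125. With DESeq2 they were 13 for HGFAC-KO against control on chow (edgeR 1), 55 on HF/HS (edgeR 2) and 1401 for HF/HS against chow in HGFAC-KO mice (edgeR 802). With all 27 mice in one fit the count on HF/HS by genotype was 1. Leaving out 1 mouse gave 1 gene by genotype on chow, between 976 and 1780 by diet in controls, 0 for the interaction, between 2 and 11 genes by genotype on HF/HS (5 without control mouse 7, 11 without HGFAC-KO mouse 5) and between 467 (without HGFAC-KO chow mouse 2) and 950 by diet in HGFAC-KO mice. The replicate numbers do not pair the mice by the labels, and the deviations of same-numbered mice had r from -0.42 to 0.46 with no comparison above 0.1 throughout. With the replicate block the counts were 1, 2, 774, 602 and 0 for genotype on chow and HF/HS, diet in controls and in HGFAC-KO mice, and the interaction, against 1, 2, 1424, 802 and 0, and Mup3 by diet in controls no longer passed (nor did it with all 27 mice in one fit). Under it, with DESeq2 and with all 27 mice in one fit, Mup21 by diet in HGFAC-KO mice passed. Halving the even counts of HGFAC-KO chow mouse 1 gave 821 and leaving out both such libraries 661 by diet in HGFAC-KO mice, and Mup20 no longer passed without both. Between 1 and 6 male-biased genes rose there over the alternatives other than single mice. The causes were not tested. With at least 36056177 counts a mouse, depth does not limit the members, but reads shared with near copies limit Mup7.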
